A study of Salmo salar with 31 samples.

Results

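The subject is skin of Atlantic salmon post-smolts reared in an open net-pen at sea, sampled after 4 months in seawater (net-pen 4M) and after 1 month (net-pen 1M). Members were chosen by sample title, all fish of the open cage at either time, which gave 12 of the 31 fish of the study with 6 at each time, and all non-control probes of the array were examined. The net-pen 4M and net-pen 1M fish were Salmobreed QTL duo salmon of 1 smolt batch that was divided between an open net-pen and a floating raceway with pumped deep water, the semi-closed containment system (S-CCS). S-CCS 4M and S-CCS 1M, with 6 fish each, are the same 2 times in the raceway, and 7 smolts were sampled in freshwater before transfer. All fish ate commercial feed. Each system was 1 enclosure at a site of its own, and different fish were killed at each time, so fish and not enclosures are the replicates. Time at sea, age, body size, water temperature and season advanced together and cannot be told apart here, and the slides of the arrays differed between the times as well.

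Salmon skin is a living mucosal barrier. Its epidermis holds keratinocytes and mucus cells with no dead horny layer, and the dermis beneath carries scales, pigment cells, blood vessels and a dense collagen layer. Smolts moved to the sea have to keep water and salt in balance across this surface, and the skin also carries immune cells and secreted defence proteins. A bulk sample mixes all of these layers, so more cells of a type and more RNA per cell cannot be told apart in any value given here.

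Each array carried 14841 non-control features, each 1 oligonucleotide probe named by an ID whose prefix is Ssa (Atlantic salmon, 13549 probes) or Omy (rainbow trout, 1292 probes). None of these IDs matched the 65341 genes of the reference table, so features are named by probe ID, no gene, role or tissue marker is assigned to them, and the skin label could not be checked against markers. Per array, 89.7% to 95.8% of features were well above background in net-pen 4M (median 93.5%) and 84.3% to 94.3% in net-pen 1M (median 91.3%), and no feature was saturated. The scanner software had divided the signal by a spatial trend on 4 of 6 net-pen 4M arrays and on 1 of 6 net-pen 1M arrays. The net-pen 4M arrays lay on 3 slides and the net-pen 1M arrays on another 3, with 0 slides in common, so a difference between these slides and one between the times cannot be told apart. Net-pen 4M shared slides with S-CCS 1M, and both lay on other slides than net-pen 1M and S-CCS 4M. A difference between the systems in the change over time and one between these sets of slides cannot be told apart either. All slides were scanned on 1 day. The fish of S-CCS 1M labelled 2 stood apart from its group. The main counts of S-CCS calls and of the interaction are given with and without it, other counts that use S-CCS only with it. Without it the 29 named features kept all 9 calls in S-CCS and all 16 of the interaction.

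Values are expression ratios. After the arrays had been brought to a common mean intensity, the signal of a feature was set against its own mean over the 31 arrays, and the log2 of this ratio (log2-ER) was corrected for a trend with intensity. A level given for a fish is its log2-ER minus the smolt mean, so that 0 is the smolt level and 1 is a doubling. A difference between net-pen 4M and net-pen 1M is positive where net-pen 4M was higher. "Rose" and "fell" are used of features with a Benjamini-Hochberg adjusted p under 0.05 in limma over the 14172 features that were detected well enough to test.

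Between 1 and 4 months in the net-pen, 1112 of 14172 features changed, which is 7.85% of those tested. Of these, 726 rose (5.12%) and 386 fell (2.72%). The features that rose had a median log2-ER of 0.94 and those that fell of -0.74, against -0.01 over all features. With this processing, large changes were mostly upward. With an adjusted p under 0.05, 316 features were above 1 and 96 below -1, 63 were above 2 and 16 below -2, and 11 were above 3 and 3 below -3. The detection filter leans the same way, since 152 of the tested features entered through net-pen 4M only and 28 through net-pen 1M only. Among the 11, Omy#S51827015, Omy#S18532472 and Ssa#EG902924 were dim, and their size depended on the processing, as given below. The criteria of the study ask for a p below 0.05 without adjustment and a log2-ER beyond 0.8 in either direction. They were met by 1151 features (8.12%), 666 higher (4.7%) and 485 lower (3.42%). An adjusted p under 0.05 and the same size of change together were met by 624 features (4.4%), 461 higher (3.25%) and 163 lower (1.15%). The 6 fish of net-pen 4M and the 6 of net-pen 1M did not overlap at 450 features (3.18%), 281 higher (1.98%) and 169 lower (1.19%).

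The balance of higher against lower features moved with the scaling. Higher features were 65.3% of those with an adjusted p under 0.05, against 88.6% without the lowess step, 80.5% with scaling to the 75th percentile and 53.3% with normexp background correction. At the criteria of the study they were 57.9%, against 80.4% without lowess, 75.1% with the 75th percentile and 50.6% with normexp. Normexp here added an offset of 50 units, which by itself shrinks the log2-ER of dim features. Without lowess the median of all features shifted to 0.12, and the differences of single features have to be read against that shift. Leaving out fish 7 of net-pen 1M lowered the count with an adjusted p under 0.05 to 736, and leaving out fish 2 of net-pen 4M raised it to 1440. Without the spatial step of the scanner software 1620 features changed.

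**Figure D1:**
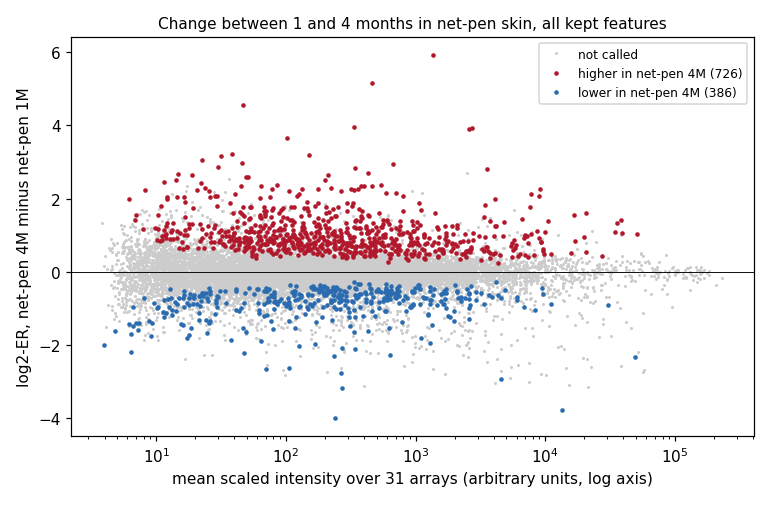
Difference in log2-ER between net-pen 4M and net-pen 1M (vertical axis) against the mean scaled intensity of each of 14172 features over 31 arrays (horizontal log axis, arbitrary units). The 726 features that rose reach higher above 0 than the 386 that fell reach below it, and few of the brightest features are called in either direction.

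Changes lay at all brightness levels and were few among the brightest features. With the features split by mean intensity into 3 equal groups of 4724, 6.2% of the dim ones changed (188 rose, 105 fell), 8.98% of the middle ones (278 rose, 146 fell) and 8.36% of the bright ones (260 rose, 135 fell). Of the 100 brightest features 1 rose and 1 fell, and the median size of the log2-ER was 0.12 there, against 0.24 over all features. The one that rose was Ssa#S18892497, with a lowest, median and highest level of -0.03, 0.66 and 0.89 in net-pen 4M, against -0.92, -0.49 and -0.07 in net-pen 1M. Its difference was 1.03 ± 0.15 (SE, n = 6 each) with an adjusted p of 0.000131 in limma, and the fish of the 2 times did not overlap. The one that fell was Ssa#S35501247, with -4.58, -1.87 and -0.68 in net-pen 4M and -1.13, 0.30 and 0.75 in net-pen 1M. Here the ranges overlapped, and the difference was -2.32 ± 0.63 (adjusted p 0.0208, limma). Of the trout probes 7.16% of 1215 changed, and of the salmon probes 7.91% of 12957.

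The largest difference of all features was at Ssa#GRASP209734281, which lies outside the rule for named features because its fish overlapped, and was picked after its values were seen. Its levels in net-pen 4M were 7.81, 4.32, 6.38, 8.41, 7.59 and 9.45 in fish 1, 2, 6, 7, 11 and 12. In net-pen 1M the same numbers of fish, which are other animals, had 1.54, -0.52, 5.56, -1.41, -0.74 and 3.97. All fish of net-pen 4M were above the smolt median, and only fish 6 of net-pen 1M exceeded the lowest of them. The signal was 259 to 11800 units in net-pen 4M, against 4.46 to 542 units in net-pen 1M, and the difference was 5.93 ± 1.11 (SE, adjusted p 0.00109, limma). This feature rose in S-CCS as well, by 7.66 (adjusted p 0.000102), with levels of 4.91 to 8.61 in S-CCS 4M against -2.47 to 3.22 in S-CCS 1M. The interaction of system and time, which tests whether the 2 changes differ, was -1.74 with an adjusted p of 0.472. Ssa#S18846215, picked in the same way, rose by 5.16 ± 0.96 (adjusted p 0.000946), with levels of 1.83 to 6.34 in net-pen 4M and -3.11 to 2.34 in net-pen 1M. It rose in S-CCS as well, by 3.04 (adjusted p 0.029, limma), with an interaction of 2.12 (adjusted p 0.285). Fish 1 of the smolts stood at 5.45, within the range of net-pen 4M.

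Among features whose fish did not overlap, the smallest p belonged to Ssa#S35472201. Its lowest, median and highest levels were 1.25, 1.65 and 2.24 in net-pen 4M, against -0.94, -0.71 and -0.30 in net-pen 1M. The net-pen 4M fish formed a narrow group well above every other fish of the study, and the net-pen 1M fish lay a little below the smolts. The difference was 2.34 ± 0.19 (SE, n = 6 each), a 5.06-fold higher level, with an adjusted p of 6.16e-09 in limma. Ssa#CL109Contig1, a bright feature with a median signal of 11800 units in net-pen 4M and 4130 units in net-pen 1M, followed with 0.52, 1.06 and 1.5 in net-pen 4M and -0.96, -0.40 and -0.06 in net-pen 1M. It rose by 1.46 ± 0.15 (adjusted p 6.52e-07). Both features also rose in S-CCS, by 0.65 and 0.62, and both changed more in the net-pen, with interactions of 1.69 (adjusted p 0.000272) and 0.84 (adjusted p 0.009).

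Ssa#S31984702 rose without overlap between the times. Its levels in net-pen 4M were 3.05 at the lowest, 4.31 at the median and 5.06 at the highest, against -2.41, -0.18 and 1.32 in net-pen 1M. It was well above background on 6 of 6 net-pen 4M arrays and on 3 of 6 net-pen 1M arrays. The difference was 4.55 ± 0.71 (adjusted p 0.000179, limma). It was 3.46 from the deposited table and 1.71 with normexp, with the call kept in both, so the size is uncertain. Net-pen 1M differed from smolts by -0.28 (adjusted p 0.815). In S-CCS the same interval gave -0.08 (adjusted p 0.952), with S-CCS 4M between 0.01 and 2.22 and S-CCS 1M between -0.89 and 3.18, and the interaction was 4.63 (adjusted p 0.00383). All 6 net-pen 4M fish were thus high, and of the other fish only fish 12 of S-CCS 1M, at 3.18, reached the lowest of them.

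Ssa#S35473744 had 3.29, 4.33 and 5.21 in net-pen 4M, against -0.56, 0.07 and 2.37 in net-pen 1M, where fish 12 held the highest value and the other 5 lay at or below 0.37. It rose by 3.96 ± 0.44 (15.6-fold, adjusted p 2.17e-06, limma), and by 4.37 without fish 12 of net-pen 1M. Ssa#S35553968 had 2.19, 3.39 and 5.15 in net-pen 4M and -1.47, 0.00 and 0.47 in net-pen 1M, and rose by 3.65 ± 0.38 (adjusted p 1.09e-06). Both stayed near the smolt level at 1 month and stood far above it at 4 months, with differences of net-pen 4M and of net-pen 1M to smolts of 4.30 and 0.34 for Ssa#S35473744, and of 3.41 and -0.24 for Ssa#S35553968. In S-CCS they rose by 2.77 and 1.18. The interaction passed the threshold for Ssa#S35553968 (2.47, adjusted p 0.00407) and not for Ssa#S35473744 (1.2, adjusted p 0.183). Ssa#DW577519 had 0.37, 1.93 and 3.14 in net-pen 4M and -1.95, -1.09 and -0.26 in net-pen 1M and rose by 2.97 ± 0.62 (adjusted p 0.00268). In S-CCS 4M this feature spread over the whole range of the study, -2.26 to 3.22.

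**Figure D2:**
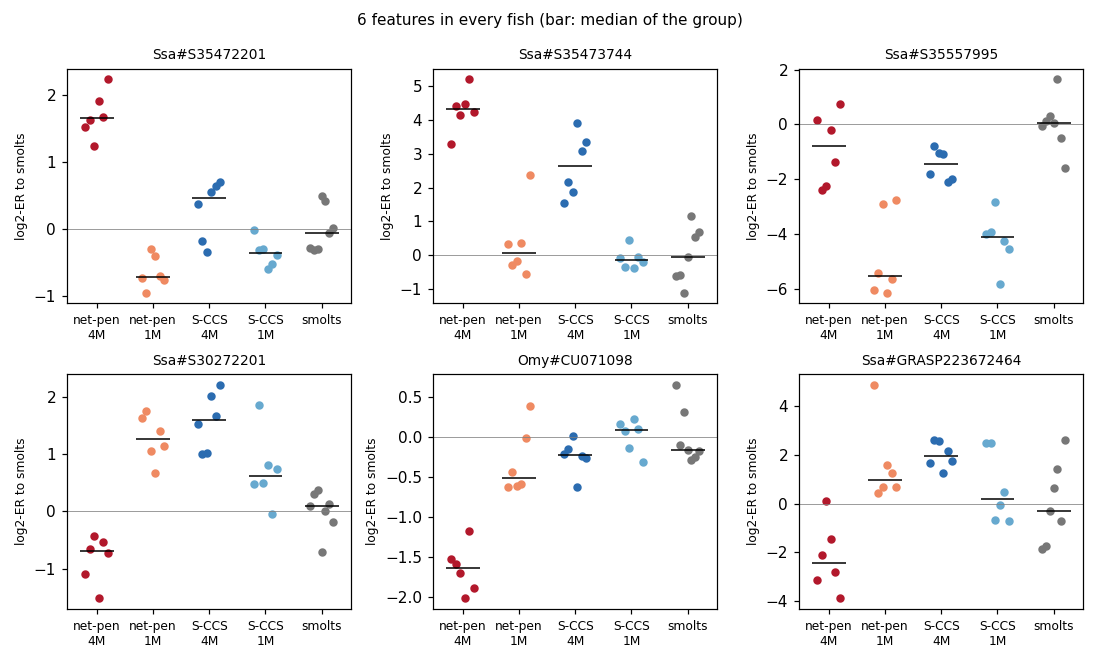
Level of 6 features in every fish as log2-ER to the smolt mean (vertical axes), with 1 dot per fish and a bar at the median of each group. Net-pen 4M and net-pen 1M do not overlap in any panel, which the rule that named these features required. S-CCS 4M and S-CCS 1M fall on the same side as the net-pen groups in some panels and not in others.

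A different course was seen at Ssa#S35557995 and Ssa#S35581849, which moved together over all arrays (r = 0.994 of the deviations from the group means over 31 arrays, which share their normalization). At Ssa#S35557995 the lowest, median and highest levels were -2.39, -0.78 and 0.76 in net-pen 4M, against -6.14, -5.53 and -2.76 in net-pen 1M. Fish 6 and 12 of net-pen 1M stood at -2.91 and -2.76 and the other 4 at -5.42 or below. The feature rose by 3.94 ± 0.62 (15.3-fold, adjusted p 0.000186, limma), and Ssa#S35581849 by 3.91 ± 0.63 (adjusted p 0.000235). Unlike the features above, these lay far below the smolts at 1 month, by -4.82 and -4.79 (adjusted p 2.42e-06 and 2.81e-06), while the difference of net-pen 4M to smolts was -0.88 and -0.89 (adjusted p 0.337 and 0.339). The median signal of Ssa#S35557995 was 3410 units in net-pen 4M, 113 units in net-pen 1M and 6060 units in smolts.

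At this pair the raceway fish also lay far below the smolts at 1 month and nearer to them at 4 months. All S-CCS 4M fish were still below the smolt mean, and no test of them against smolts is given. Ssa#S35557995 was -2.10 to -0.79 in S-CCS 4M, against -5.84 to -2.82 in S-CCS 1M, and rose by 2.76 (adjusted p 0.00335), with an interaction of 1.18 (adjusted p 0.368). Of the features most like the pair by the same correlation, Ssa#S35581696 (r = 0.867) rose by 2.95 ± 0.51 (adjusted p 0.000463), Ssa#S30236618 (r = 0.83) by 1.89 ± 0.34 (adjusted p 0.000836) and Ssa#DW577494 (r = 0.828 with Ssa#S35581849) by 1.67 ± 0.31 (adjusted p 0.000946). Their medians were -0.47, -0.93 and -0.85 in net-pen 4M, against -4.38, -3.43 and -2.91 in net-pen 1M. By the median, each of the 5 stood lowest at 1 month in the net-pen and nearer to the smolt level at 4 months. These 3 did not pass the threshold in S-CCS, with 1.34, 0.57 and 0.83 (adjusted p 0.0663, 0.263 and 0.0622).

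The remaining 6 named features that rose were dim, and they belonged to a set that varied together. They were Omy#S51827015, Omy#S18532472, Ssa#EG902924, Ssa#S37959478, Ssa#EL698354 and Ssa#S31973984, with differences of 2.59 to 3.22. At Omy#S18532472 the levels were 1.42 in fish 7 of net-pen 4M and 2.83 to 3.11 in its other 5 fish, against -1.69 to 0.51 in net-pen 1M. The feature was well above background on 6 of 6 net-pen 4M arrays and on 0 of 6 net-pen 1M arrays, so its fold is a bound, at least 4.33-fold higher, with an adjusted p of 0.0177 in limma. Here and below the bound sets the net-pen 4M mean against, per net-pen 1M array, the higher of the probe's own signal and the lowest signal well above background. Omy#S51827015 was at least 5.96-fold higher (adjusted p 0.00969) and Ssa#EG902924 at least 2.49-fold higher (adjusted p 0.0174), each on 0 of 6 net-pen 1M arrays. Omy#S18532472, Ssa#EG902924 and Ssa#EL698354 passed the detection filter through net-pen 4M only, the group where they are high. Their calls and p-values are therefore in part built in. With normexp, 5 of the 6 features were no longer called, and Omy#S51827015 kept an adjusted p of 0.0491. The normexp offset of 50 units shrinks such dim differences by itself, so this loss cannot be read as an effect of background correction. With the deposited table Omy#S18532472, Ssa#EG902924 and Ssa#EL698354 were not called (adjusted p 0.113, 0.186 and 0.204). There the log2-ER was 2.29 at Omy#S51827015, 1.86 at Omy#S18532472 and 1.30 at Ssa#EG902924, each a smaller fold than the bound given above. The bounds therefore hold only for the signal used in the main fit.

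All 6 reached their highest level of the study in fish 2 of S-CCS 1M, at 5.04 to 6.42, and were raised in 1 smolt (fish 3, 1.81 to 2.86). To describe the set by a rule that reads no net-pen level, features were taken whose level in fish 2 of S-CCS 1M exceeded that of each of the other 5 fish of its group by more than 3. There were 104, with a median mean intensity of 20.9 units. Of these, 22 rose in net-pen 4M against net-pen 1M (21.2%, against 5.12% of all features) and 0 fell, 64 were higher at the criteria of the study (61.5%, against 4.7% of all features), and 100 of 104 had a positive log2-ER (96.2%, against 48.2%), with a median of 1.30 against -0.01. The median level over the 104 features was 0.15 in fish 7 of net-pen 4M and 1.04 to 1.27 in its other 5 fish, against -0.58 to 0.26 in net-pen 1M. It was -0.39 to 0.02 in S-CCS 4M, and 3.75 in fish 2 of S-CCS 1M. Smolts ranged from -0.50 to 1.14, with the highest value in fish 3, equal to the median of the net-pen 4M fish. The filter for tested features did use the net-pen arrays, and 152 of the 14172 entered through net-pen 4M only. Omy#S18532472, Ssa#EG902924 and Ssa#EL698354 entered in this way, so their own calls and the shares of the 104 features are in part built in. The array of fish 2 of S-CCS 1M shared its slide with fish 6 and 7 of net-pen 4M and fish 1 of S-CCS 1M, and with no net-pen 1M array. The median levels of these fish over the 104 features were 1.04, 0.15 and -0.41. Whether the slide had a part was not tested, nor was what the 104 features measure. Refitted without fish 2 of S-CCS 1M, the 6 named members rose by 2.39 to 3.05 (adjusted p 0.000133 to 0.00115, limma). Each difference was smaller than with that fish, and the p-values are lower because its outlying values left the spread pooled over the groups. The 6 were named for their net-pen difference, so the refit is no separate support. Their interactions with that fish were 4.77 at Omy#S18532472, 4.42 at Omy#S51827015, 4.04 at Ssa#EG902924 and 3.38 at Ssa#S31973984. Without it they were 3.44, 3.27, 2.68 and 2.30, each still with an adjusted p under 0.05 (0.0037 to 0.0122), while those of Ssa#S37959478 and Ssa#EL698354 passed the threshold in neither fit. Without the 104 features, 704 features rose and 386 fell, and without the array of fish 2 of S-CCS 1M 1279 changed.

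Detection was also compared by count. Of the 14172 features tested, 45 were detected above background on 5 or 6 of 6 net-pen 4M arrays and on no net-pen 1M array, and 0 the other way round. Such counts depend on the detection of whole arrays, which was lowest in fish 12 of net-pen 1M (84.3%). Of the 45, 16 belonged to the 104 features above. Their difference follows from this choice and is not given as a result. They were detected on a median of 1 array of S-CCS 4M, 2 of S-CCS 1M and 1 of the smolts. The share of features detected per array differed by 2.65 percentage points between net-pen 4M and net-pen 1M (two-sided exact permutation test over 12 fish, p = 0.152, adjusted over 4 values p = 0.606, smallest possible p 0.00216).

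**Figure D3:**
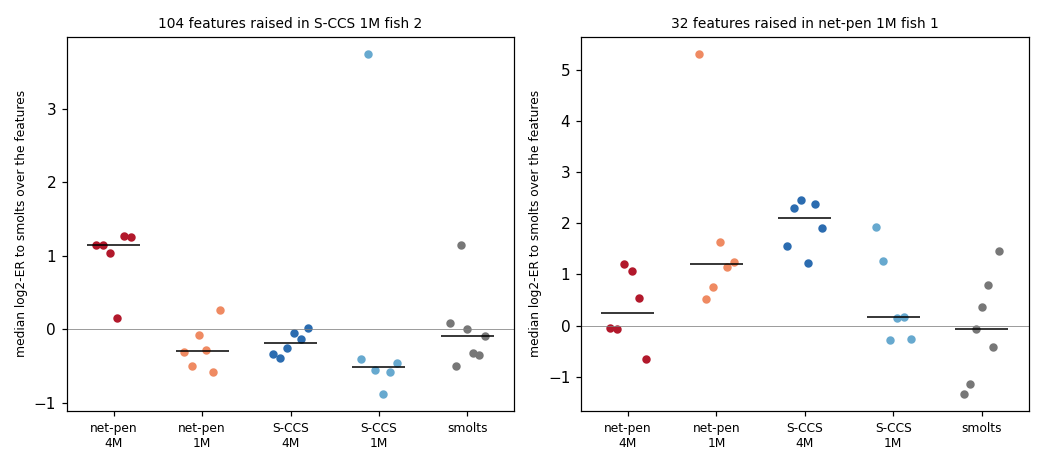
Median log2-ER to the smolt mean (vertical axes) over 104 features raised in fish 2 of S-CCS 1M (left) and over 32 features raised in fish 1 of net-pen 1M (right), with 1 dot per fish and a bar at the group median. On the left 5 of 6 net-pen 4M fish lie above every net-pen 1M fish by a wide gap, and on the right 1 net-pen 1M fish stands at 5.32 while the others of its group lie between 0.51 and 1.63.

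Among features that fell, the lowest p-values belonged to Ssa#S30272201 and Omy#S15288492, a salmon and a trout probe that moved together (r = 0.983 of the deviations over 31 arrays). Ssa#S30272201 had -1.52, -0.69 and -0.44 in net-pen 4M, against 0.67, 1.27 and 1.75 in net-pen 1M. Every net-pen 4M fish was below all smolts but fish 6, and every net-pen 1M fish was above all smolts. It fell by 2.10 ± 0.26 (4.29-fold, adjusted p 1.79e-05, limma), and Omy#S15288492 fell by 2.07 ± 0.27 (adjusted p 4.28e-05). Its distance to the smolts was -0.83 at 4 months and 1.27 at 1 month (adjusted p 0.0204 and 0.000719), so it crossed the smolt level. In the raceway it moved the other way, with 1.00 to 2.21 in S-CCS 4M against -0.05 to 1.86 in S-CCS 1M, a rise of 0.85 (adjusted p 0.0263). Its interaction was -2.95 (adjusted p 6.17e-05), and that of Omy#S15288492 was -2.86 (adjusted p 0.000103).

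The largest fall without overlap was at Ssa#GRASP223649023, with -3.51, -2.28 and -0.46 in net-pen 4M, against 0.46, 1.94 and 3.81 in net-pen 1M. It fell by 3.99 ± 0.86 (15.9-fold, adjusted p 0.00351, limma), and smolts spread from -3.81 to 3.62. S-CCS gave a fall of 3.14 (adjusted p 0.0129) with -3.22 to -0.04 in S-CCS 4M and 0.67 to 3.45 in S-CCS 1M. Omy#CU071098 had -2.02, -1.64 and -1.17 in net-pen 4M and -0.62, -0.52 and 0.39 in net-pen 1M and fell by 1.34 ± 0.18 (adjusted p 4.4e-05). At 1 month its difference to smolts was -0.31 (adjusted p 0.212), and all 6 net-pen 4M fish lay below every other fish of the study. In S-CCS its difference was -0.27 (adjusted p 0.319), with an interaction of -1.07 (adjusted p 0.00645).

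Ssa#S30273091 fell by 1.62 ± 0.29 (adjusted p 0.000646), with -2.26 to -0.30 in net-pen 4M and -0.17 to 0.83 in net-pen 1M, and had an interaction of -1.73 (adjusted p 0.00645). Ssa#GRASP209732319, Ssa#S31990975 and Ssa#S48398748 fell by 1.94, 1.65 and 1.56 (adjusted p 0.00327, 0.00945 and 0.00326), and none of these 3 passed the test of the interaction. Ssa#KSS4990, a dim feature detected on 1 of 6 net-pen 4M arrays and on 5 of 6 net-pen 1M arrays, had -1.60 to -0.30 in net-pen 4M and 0.47 to 0.97 in net-pen 1M. It fell by 1.75 ± 0.34 (adjusted p 0.00154). It was -0.97 from the deposited table and -0.22 with normexp, with the call kept in both, so the size is uncertain. The difference was 0.78 in S-CCS (adjusted p 0.115), and the interaction was -2.53 (adjusted p 0.00172).

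At several features that fell, 1 fish of net-pen 1M stood far above the others. Ssa#GRASP223672464 had -3.89, -2.45 and 0.12 in net-pen 4M, against 0.43, 0.97 and 4.86 in net-pen 1M, with the highest value in fish 1. Its median signal was 853 units in net-pen 4M and 8710 units in net-pen 1M. It fell by 3.79 ± 0.78 (adjusted p 0.00257, limma), and by 3.13 without fish 1 of net-pen 1M (adjusted p 0.00881). Ssa#CL4Contig1 and Omy#TC172518, which moved with it (r = 0.976 and 0.95), had 6.24 and 5.90 in the same fish. At Ssa#CL4Contig1 the other net-pen 1M fish were at 1.00 to 2.36 and net-pen 4M at -2.55 to 1.14, and at Omy#TC172518 at 0.95 to 2.27 and -1.46 to 1.19. Ssa#CL4Contig1 fell by 2.93 (adjusted p 0.0237), and Omy#TC172518 fell by 2.26 (adjusted p 0.0447). Without fish 1 of net-pen 1M the differences were -2.12 (adjusted p 0.0698) and -1.53 (adjusted p 0.13).

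These features were part of a larger set. In fish 1 of net-pen 1M, 32 features exceeded each of the other 5 fish of its group by more than 3. This rule used net-pen 1M, so the set's difference to net-pen 4M is described and not tested. The median level over the 32 features was -0.65 to 1.2 in net-pen 4M, against 5.32 in fish 1 of net-pen 1M and 0.51 to 1.63 in its other 5 fish. Their median log2-ER was -1.37 with fish 1 and -0.57 without it, and 3 of the 32 fell (9.38%, against 2.72% of all features), a share that follows in part from the choice of the set. Among the groups that the rule did not use, S-CCS 4M stood at 1.23 to 2.45 and S-CCS 1M at -0.28 to 1.92, with a median difference of 1.53, although only 3 of the 32 passed the test there (9.38%, against 7.47% of all features). Smolts ranged from -1.34 to 1.45.

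For 3 other named features that fell the call depended on single fish. Ssa#KSS4577 had -2.34 to -1.68 in net-pen 4M and -1.46 to 2.92 in net-pen 1M, with the highest value again in fish 1, and fell by 1.98 ± 0.61 (adjusted p 0.0411, limma). Without fish 1 of net-pen 1M its difference was -1.39 (adjusted p 0.124). Ssa#S18840394 had a narrow range of -2.54 to -1.59 in net-pen 4M and a broad one of -1.16 to 3.03 in net-pen 1M, and fell by 2.65 ± 0.77 (adjusted p 0.0299). Ssa#S30275401 fell by 1.72 ± 0.52 (adjusted p 0.038). Leaving out single net-pen fish, the adjusted p passed 0.05 for 7 of the 29 named features. At Ssa#S30275401 this held for 9 of 12 fish, all but fish 2 of net-pen 4M and fish 6 and 7 of net-pen 1M (adjusted p up to 0.0717). At Ssa#EL698354 it held for 9, all but fish 2 and 7 of net-pen 4M and fish 7 of net-pen 1M (up to 0.0802). At Ssa#KSS4577 it held for 8, all but fish 2 of net-pen 4M and fish 6, 11 and 12 of net-pen 1M (up to 0.124). At Ssa#S18840394 it held for fish 6, 7 and 11 of net-pen 4M and fish 2, 7 and 11 of net-pen 1M (up to 0.0919), and at Omy#TC172518 for fish 1, 2, 11 and 12 of net-pen 4M and fish 1 and 7 of net-pen 1M (up to 0.13). At Ssa#CL4Contig1 it held for fish 12 of net-pen 4M and fish 1 of net-pen 1M (up to 0.0698), and at Ssa#S37959478 for fish 2 of net-pen 1M (0.0528). The other 22 stayed below 0.05 without any one of the 12 fish.

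The net-pen changes were set beside the same interval in the raceway, which shares no fish with the net-pen. In S-CCS 4M against S-CCS 1M 2342 of 14172 features changed (16.5%), of which 1059 rose (7.47%) and 1283 fell (9.05%). Of the 726 features that rose in the net-pen, 126 rose in S-CCS (17.4%, against 7.47% of all features) and 31 fell there (4.27%, against 9.05%), and their median S-CCS log2-ER was 0.23. These 126 were 11.9% of the features that rose in S-CCS. Of the 386 that fell in the net-pen, 31 fell in S-CCS (8.03%, against 9.05% of all features), 39 rose there (10.1%, against 7.47%), and the median S-CCS log2-ER was 0.11. The 31 were 2.42% of the features that fell in S-CCS. The direction of the raceway calls depended on the scaling, since 45.2% of them were higher, against 13.7% without lowess.

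The difference between the systems was tested directly. The interaction passed an adjusted p of 0.05 at 2308 of 14172 features (16.3%). It passed at 239 of the 726 that rose in the net-pen (32.9%) and at 207 of the 386 that fell (53.6%), counts that are not independent of the choice of these features, which used the net-pen change. The interaction also depended on the scaling. Of the 2308 calls 51% were positive, against 88.8% of 3366 calls without lowess. It passed at 2059 features with scaling to the 75th percentile, 2196 with quantile normalization and 2589 with normexp. Without the spatial step of the scanner software it passed at 3232 features, and with the deposited values at 3117. In all, 157 of the 14172 features changed in 1 direction in both systems and 70 in opposite directions. Of the 157, 153 had no detectable interaction, a count that follows largely from choosing features called in 1 direction in both. Among the 29 named features, 16 passed the test of the interaction, and for the other 13 a difference between the systems was not shown. This count is no independent result, since some of the 29 were named for a large interaction and the rest for the net-pen change that enters it. Without fish 2 of S-CCS 1M, 2203 features changed in S-CCS, 1010 of them higher, and the interaction passed at 2166, among them 230 of the 726 and 195 of the 386. In that fit 119 of the 726 features that rose in the net-pen rose in S-CCS and 24 fell, and of the 386 that fell in the net-pen 28 fell in S-CCS and 36 rose.

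**Figure D4:**
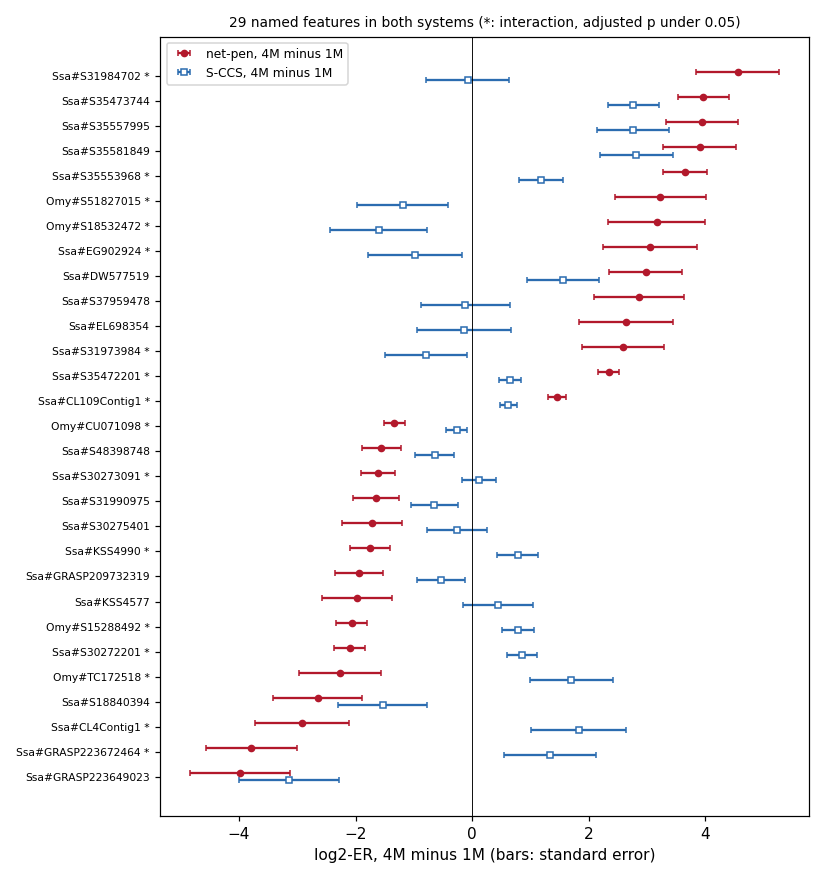
Log2-ER of 4M minus 1M in the net-pen (red circles) and in S-CCS (open blue squares) for the 29 named features, with bars of 1 standard error and an asterisk at the 16 whose interaction had an adjusted p under 0.05. The net-pen values were the basis of the choice of features and lie away from 0 by construction, while the S-CCS values run from -3.14 at Ssa#GRASP223649023 to 2.81 at Ssa#S35581849 and lie on the other side of 0 for several features.

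No difference in variability between fish of the 2 times was detected. The median absolute deviation of a fish from the mean of the other fish of its group was 0.21 to 0.32 in net-pen 4M (median 0.28), against 0.20 to 0.40 in net-pen 1M (median 0.23), where fish 11 and 12 held the largest values. The group means differed by -0.00431 (two-sided exact permutation test over 12 fish, p = 0.922). The 100 brightest features took 40.7% to 44.3% of the signal in net-pen 4M and 40.2% to 49.3% in net-pen 1M, with the highest share in fish 12, and the difference was -0.68 percentage points (exact p = 0.69). The ratio of spot signal to background was 5.86 to 7.75 in net-pen 4M and 5.22 to 8.33 in net-pen 1M (exact p = 0.857). After adjustment over the 4 values tested the p-values for spread, share and ratio were 0.922 each.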

How the data were processed

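Cy3-labelled skin RNA of 31 fish was hybridized on 31 single-colour arrays, and fish were grouped by the sample labels. The labels name an RNeasy kit for the extraction, the methods of the study another reagent. The authors deposited the tables of the scanner software (Agilent Feature Extraction 12.0.1.1, protocol GE1_1200_Jun14), and the background-subtracted intensity in their processed signal column, detrended in space by the software on 7 arrays, was used. The authors also deposited a table of values, which served as an alternative. At values of 200 or more it equalled the median signal intensity minus local background times a factor fixed for the array (log2 ratio to the scanner value with an SD of 0.00102 to 0.00133). Lower values were not checked in this way. Of its cells 26641 were empty, 26067 of them where the scanner difference was positive.

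Each array held 15377 spots with 536 controls. A feature was kept if 50% or more of the arrays in any group showed it well above background (14172, with 669 removed), and 145 values marked as outliers were left out. Of the kept features 152 entered through net-pen 4M only and 28 through net-pen 1M only. Scaling to equal mean intensity, ratios and lowess followed the methods of the study. These name neither the input signal nor the lowess variable and span. The processed signal, the log2 of the mean intensity of a feature and a span of 0.3 were chosen here. One limma 3.58.1 fit (R 4.3.3) with 5 groups over 31 arrays gave all contrasts. Python 3.11.15 (pandas 2.3.3, numpy 2.4.6, matplotlib 3.10.9) served for reading and plotting. The steps were tested on simulated data.

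Named features were, among those with an adjusted p under 0.05, no overlap and detection on at least 4 of 6 arrays of the higher group, the 12 highest and 12 lowest log2-ER and the 3 smallest p in each direction, and in addition the 3 largest interactions in each direction. The members, rules and lists were chosen with earlier results of these data known. Lists of genes and of cell type markers could not be used, because 0 of 14841 probe IDs matched a gene. Fish numbers did not pair the groups, since the deviations of same-numbered fish correlated by -0.04 to 0.2. The fish of a group shared 1 enclosure, so p-values measure spread between fish and not between enclosures. That spread was pooled over the 5 groups, so smolts and S-CCS fish enter the SE and p of the net-pen difference. A fit of the 12 net-pen arrays alone called 796 features, of which 600 were among the 1112 (54% of these). The number of arrays limits the precision.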

Additional observations from a re-analysis of the deposited data

Results flagged for a closer look

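In 69 groups of 6 fish (the named features and per-fish summaries at both net-pen times), 11 held 1 fish far from the other 5, where chance gives about 3.45. Of these, 4 were fish 1 of net-pen 1M, at Ssa#CL4Contig1 (6.24, next 2.36), Omy#TC172518 (5.9, next 2.27), Ssa#GRASP223672464 (4.86, next 1.6) and Ssa#KSS4577 (2.92, next -0.01). Another 4 were fish 7 of net-pen 4M, at Omy#S18532472 (1.42, next 2.83), Ssa#EG902924 (0.95, next 2.44), Ssa#EL698354 (0.92, next 2.01) and the median over the 104 features raised in fish 2 of S-CCS 1M (0.15, next 1.04). The rest were fish 12 of net-pen 1M at Ssa#S35473744 (2.37, next 0.37), fish 11 of net-pen 1M at Omy#S51827015 (-1.91, next -0.95) and fish 6 of net-pen 4M at Ssa#S18840394 (-2.54, next -1.91). Of the features named for fish 1, Ssa#CL4Contig1, Omy#TC172518 and Ssa#GRASP223672464 vary together, and so do those named for fish 7, so these are not separate events. For Ssa#KSS4577 this was not shown.

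The interaction of system and time, which cannot be told apart from a difference between sets of slides, passed the test (limma, adjusted p under 0.05) at 16 named features. It was positive at Omy#S18532472 (4.77), Ssa#S31984702 (4.63), Omy#S51827015 (4.42), Ssa#EG902924 (4.04), Ssa#S31973984 (3.38), Ssa#S35553968 (2.47), Ssa#S35472201 (1.69) and Ssa#CL109Contig1 (0.84). It was negative at Ssa#GRASP223672464 (-5.13), Ssa#CL4Contig1 (-4.75), Omy#TC172518 (-3.97), Ssa#S30272201 (-2.95), Omy#S15288492 (-2.86), Ssa#KSS4990 (-2.53), Ssa#S30273091 (-1.73) and Omy#CU071098 (-1.07).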

How the results depend on the processing

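Of 774 pairs of a named feature and another setting, 712 kept direction and an adjusted p under 0.05, 62 kept direction only, and 0 changed sign. Of 80 counts under other settings 73 lay within 1.5 times. The count with an adjusted p under 0.05 (1112) was 2255 with normexp, 2202 with array weights and 736 to 1440 with 1 net-pen fish left out. The count at the criteria of the study (1151) was 540 with normexp, 624 with an adjusted p in addition and 999 to 1494 with 1 fish left out. The S-CCS count (2342) was 3805 with array weights. Fish numbers gave no pairing. With fish number as a replicate block in a fit of the 12 net-pen arrays 727 features had an adjusted p under 0.05 and 1311 met the criteria, against 796 and 1284 in those arrays without it, and only fish 12 correlated best with its own number. With slide as a random block (correlation -0.04), which cannot take off a difference between the slides of the 2 times, 1244 and 1189 were called. The difference in spread between fish (-0.00431) was 0.00572 with 75th percentile scaling, 0.00861 with quantile normalization, 0.00707 with normexp, 0.00301 without lowess, 0.00232 without detrending and 0.0117 with the deposited table, none past the threshold, and the share of the brightest features 0.000725 with quantile normalization. The causes were not tested. Leaving out fish 2 of S-CCS 1M, and the count of interactions without fish 1 of net-pen 1M (2082, against 2308), were added after the data were seen. Signal near background limits the dim features. With normexp the 6 dim features raised in fish 2 of S-CCS 1M were 0.36 to 0.81, a shrinkage to which its offset of 50 units contributes by itself.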
